A study of Mus musculus with 12 samples.

Results

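Collagens and other matrix genes, among them genes of the adrenal capsule and stroma, were followed through a comparison of transgenic and wild-type mouse adrenal glands. The genes were those whose symbol in the annotation of the array was Col, a number, the letter a and a number, together with Sparc, Dcn, Lum, Fn1, Postn, Bgn, Fbn1, Fbln1, Eln, Mgp, Lox and Timp1. This gave 54 probes of 53 genes among 25344 spots, and 52 of the genes were tested among 21904 features (genes, or single probes without a gene). Fbn1 had no probe under that symbol. Every tested matrix gene was measured on all 12 arrays. The rule used symbols and no measured value.

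Each transgenic mouse, of line #56, carried a yeast artificial chromosome (YAC) with Ftz-F1, the gene also called Nr5a1, whose product is SF-1, a nuclear receptor. The mice of 10 days had 1 transgene copy and those of 4 months had 2 copies, so age and copy number changed together and their effects cannot be told apart. Each was hybridised directly against a wild-type littermate of its own sex and age on a two-colour array, and again with the dyes exchanged, which gave 6 pairs on 12 arrays. Pairs are named by the number of the transgenic mouse. Pairs 11, 13 and 15 were 10 days old and pairs 1, 3 and 5 were 4 months old. Pairs 15 and 5 were female and the others male. All transgenic mice came from a single line, so the transgene and its insertion site cannot be told apart, and the sources do not say which promoter and which cell types drove the transgene.

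Fibrillar collagens such as types I, III and V assemble into the fibres that give connective tissue its strength. Type IV collagen forms the sheet-like network of basement membranes, and type VI forms beaded filaments close to cells. The adrenal gland is enclosed by a capsule of fibroblast-like cells and collagen, and a basement membrane network surrounds the cords of steroid-producing cortical cells. SF-1 drives the steroid-producing program of the cortex and binds DNA as a monomer at an extended form of the nuclear receptor element.

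All values are log2 ratios of the 2 channels, averaged over the 2 dye-exchanged arrays of a pair, where a difference of 1 is a 2-fold ratio. The sources do not say which of the samples is the numerator of the ratio, so signs are as deposited and would all reverse together if read the other way. Nr5a1, the gene of the transgene, had ratios of -0.57, -0.64 and -0.78 in pairs 11, 13 and 15 and of -0.46, 0.11 and -0.23 in pairs 1, 3 and 5. Its mean was -0.43 (SE 0.09, limma adjusted p = 0.108). Read as the sample labelled transgenic over the sample labelled wild type, these signs go against extra copies of the gene in 5 of 6 pairs, and no direction is drawn from them. Adrenal tissue was present by its markers, since 8 of 10 adrenal cortex and 5 of 11 chromaffin cell markers with a recovered signal were brighter than 90% of all probes. Markers of other tissues set 3 pairs apart. The median of hepatocyte markers was 1.46 in pair 11 and at most 0.21 elsewhere, that of adipocyte markers was 1.34 in pair 15, and that of lymphocyte markers was -1.87 in pair 3.

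Promoter windows of 250 bases before to 50 after the start site were taken from RefSeq on GRCm38.p6, where 38 of the matrix genes had 43 windows. The first 3 windows shown belong to the genes with the smallest p-values over the 6 pairs, and the last to Col3a1, the fibril gene whose ratios spread most at 10 days among the fibrillar collagens. Capitals mark every match to the SF-1 element AAGGTCA, to the CCAAT box, to the TATA box with the letters TATAAA and to the GC box with the letters GGGCGG. Both strands were searched, so a match on the other strand appears as its reverse complement. They are the windows at chr9:20815018-20815317 on the minus strand for Col5a3, chr11:51289670-51289969 on the plus strand for Col23a1, chr9:108953336-108953635 on the plus strand for Col7a1 and chr1:45311288-45311587 on the plus strand for Col3a1.
Col5a3: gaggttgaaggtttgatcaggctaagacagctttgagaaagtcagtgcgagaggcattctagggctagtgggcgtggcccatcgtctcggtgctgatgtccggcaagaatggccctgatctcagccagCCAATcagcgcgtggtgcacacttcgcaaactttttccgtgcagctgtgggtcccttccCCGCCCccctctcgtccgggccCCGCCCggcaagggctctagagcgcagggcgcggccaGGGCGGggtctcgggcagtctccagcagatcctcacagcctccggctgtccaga
Col23a1: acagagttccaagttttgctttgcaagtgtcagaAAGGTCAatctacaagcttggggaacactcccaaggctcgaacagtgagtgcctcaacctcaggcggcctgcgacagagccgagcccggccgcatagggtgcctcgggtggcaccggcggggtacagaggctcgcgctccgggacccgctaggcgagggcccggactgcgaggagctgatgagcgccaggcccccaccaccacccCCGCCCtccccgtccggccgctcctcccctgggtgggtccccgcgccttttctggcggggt
Col7a1: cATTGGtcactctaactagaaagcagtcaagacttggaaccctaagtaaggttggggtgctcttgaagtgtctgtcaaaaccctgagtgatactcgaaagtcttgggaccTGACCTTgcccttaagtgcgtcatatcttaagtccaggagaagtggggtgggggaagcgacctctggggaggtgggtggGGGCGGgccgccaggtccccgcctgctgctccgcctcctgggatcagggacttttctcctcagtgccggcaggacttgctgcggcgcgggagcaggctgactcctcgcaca
Col3a1: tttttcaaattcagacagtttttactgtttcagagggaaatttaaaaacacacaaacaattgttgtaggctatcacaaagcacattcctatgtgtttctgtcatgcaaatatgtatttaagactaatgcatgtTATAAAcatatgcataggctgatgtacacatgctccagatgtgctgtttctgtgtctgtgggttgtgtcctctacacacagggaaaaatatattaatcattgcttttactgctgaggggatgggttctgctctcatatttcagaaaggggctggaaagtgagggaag
The SF-1 element was found in the windows of Col23a1, Col7a1, Col11a1, Col24a1 and Col9a1, which is 5 of 43 windows, against 4.72% of 32851 windows of all genes. The Col23a1 match begins at base -216 from the start site and that of Col7a1 at base -140. The shorter nuclear receptor motif AGGTCA, which the SF-1 element contains, was in 8 of 43 windows against 16.3% of all. GC boxes were in 25 of 43 windows against 35.7% of all, CCAAT boxes in 15 against 37.4%, and TATA boxes in 6 against 13.6%. The window of Col3a1 held a TATA match and no GC box, and that of Col5a3 held a CCAAT box and 3 GC boxes. These are matches of letters only.

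No matrix gene passed the adjusted threshold of 0.05 in limma, over the 6 pairs, at 10 days, at 4 months or between the ages. Over all features the share that passed was 0.0365% over the 6 pairs (8 features) and 0% in each of the other comparisons. An ordinary linear model on the same values also passed no matrix gene. Before adjustment, a limma p below 0.05 was reached over the 6 pairs by 9 of 52 matrix genes, against 15% of all features. At 10 days 7 of 52 reached it against 8.35% of all features, at 4 months 7 of 52 against 12.3%, and between the ages 0 of 52 against 4.58%. Of those genes, 6 of 9 over the 6 pairs, 6 of 7 at 10 days and 5 of 7 at 4 months had a negative ratio. The share of negative ratios among all features at that level was not counted, so no lean is read from these counts.

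More matrix genes had negative than positive ratios after the dye correction, which centres each array. Values as deposited were not centred, and the median of all features over the 6 pairs was 0.27. There 14 of 52 matrix genes were negative over the 6 pairs, against 9.89% of all features. After the correction 34 of 52 were negative over the 6 pairs, against 52.7% of all features. At 10 days 35 of 52 were negative against 51.2%, and at 4 months 32 of 52 against 51.7%. The majority at 10 days rested on pair 11: without it 23 of 52 were negative, against 50.6% of all features, and the median matrix gene lay at 0.02. The median matrix gene lay at -0.06 over the 6 pairs, -0.05 at 10 days and -0.03 at 4 months, where the median of all features was -0.01 each time. Col5a3, Col23a1, Col6a1 and Col18a1 were negative in 6 of 6 pairs (4 of 52 genes, against 4.68% of all features), and Col16a1 and Col25a1 were positive in 6 of 6 (2 of 52, against 5.58%). At 4 months 13 of 52 were negative in 3 of 3 pairs, against 17.7% of all features, and at 10 days 10 of 52, against 16.7%.

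**Figure D1:**
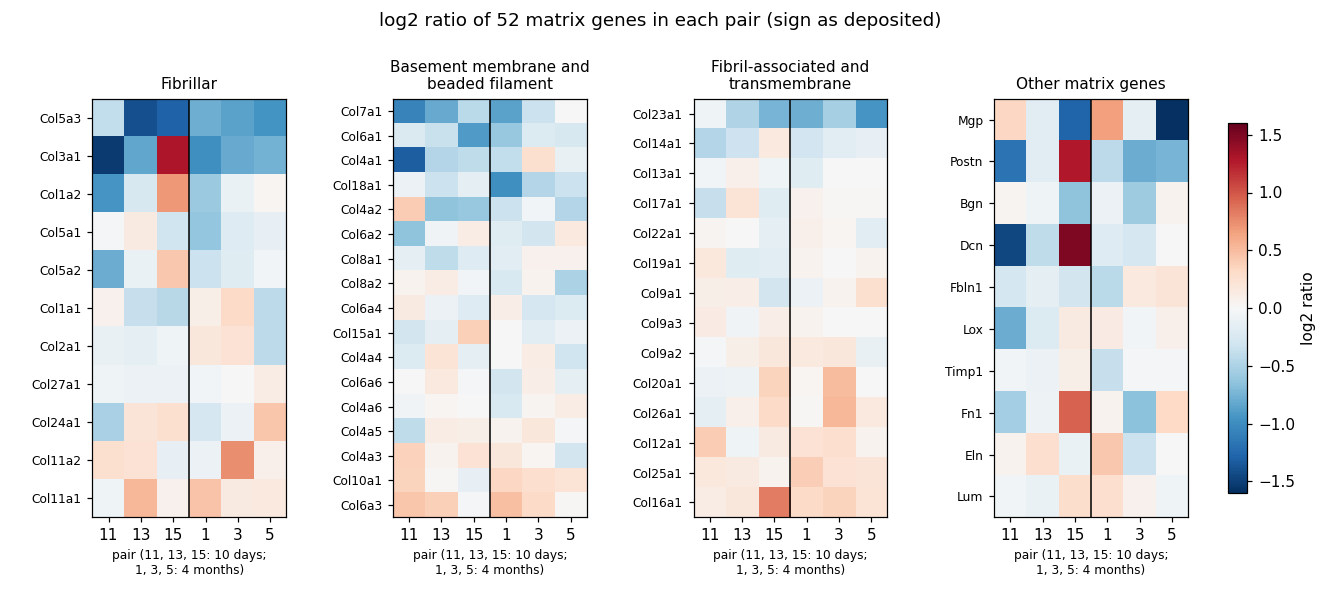
Heat maps of the log2 ratio (colour, sign as deposited) of the 52 tested matrix genes in each of the 6 pairs, in 4 panels by role, with a line between the 10-day and the 4-month pairs. Col5a3 is negative in every pair, while Col3a1, Dcn and Postn are negative in pair 11 and positive in pair 15.

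Among the fibrillar collagens, 8 of 11 were negative over the 6 pairs, with a median of -0.13. Col5a3 encodes the alpha 3 chain of type V collagen, a minor fibril collagen that takes part in starting type I fibrils. Its ratios were -0.39, -1.41 and -1.30 in pairs 11, 13 and 15 and -0.78, -0.86 and -0.96 in pairs 1, 3 and 5. All 6 pairs were negative, pair 11 was nearest to 0, and the 4-month values lay inside the range of the 10-day values. The mean was -0.95 (SE 0.13, 95% interval -1.26 to -0.64), the most negative of all matrix genes, and missed the threshold with a limma adjusted p of 0.0685. Without pair 11 the mean was -1.11 and passed (limma adjusted p = 0.0275), while the adjusted p of Col5a3 ran from 0.00628 to 0.349 over 19 alternatives. The 2 arrays of each pair gave nearly the same ratio, for example -1.44 and -1.38 in pair 13 and -0.97 and -0.94 in pair 5, and 12 of 12 arrays were negative.

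Col3a1 encodes type III collagen, which forms fine fibrils together with type I in capsules and vessel walls. In the 4-month pairs 1, 3 and 5 its ratio was -0.98, -0.81 and -0.76, a mean of -0.85 ± 0.12 (SD, n = 3). At 10 days the ratio was -1.53 in pair 11, -0.83 in pair 13 and 1.29 in pair 15, a mean of -0.36 ± 1.47 (SD, n = 3). The values at 4 months were close together, whereas pair 15 had the opposite sign from the other 5 pairs. Neither mean passed the threshold (limma adjusted p = 0.88 at 10 days and 0.471 at 4 months). Over the 6 pairs the mean was -0.60, and it ran from -1.01 to -0.31 with pairs left out in turn.

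The chains of type I collagen, the main fibril collagen of connective tissue, did not run together. Col1a2 was -0.95, -0.26 and 0.69 in pairs 11, 13 and 15 and -0.60, -0.11 and 0.03 in pairs 1, 3 and 5. Col1a1 was 0.07, -0.37 and -0.44 in pairs 11, 13 and 15 and 0.09, 0.31 and -0.42 in pairs 1, 3 and 5. Col1a2 thus changed sign from pair 11 to pair 15 in the way Col3a1 did, and Col1a1 had the opposite signs in those 2 pairs. Means over the 6 pairs were -0.20 (SE 0.19) for Col1a2 and -0.13 (SE 0.11) for Col1a1, and neither passed the threshold (limma adjusted p = 0.673 and 0.65). With pairs left out in turn the mean of Col1a2 ran from -0.41 to -0.01, and that of Col1a1 from -0.21 to -0.02. Means on Cy3-transgenic and Cy5-transgenic arrays were -0.27 and 0.02 for Col1a1, and -0.05 and -0.35 for Col1a2. The arrays of Col1a1 disagreed in sign in pair 1 (0.23 and -0.05) and pair 3 (-0.07 and 0.70). The Col1a1 probe was also dimmer, brighter than 73.0% of probes against 91.4% for Col1a2. The part of these limits in the difference between the chains was not tested.

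Col5a1, the alpha 1 chain of type V collagen, was -0.03, 0.14 and -0.32 in pairs 11, 13 and 15 and -0.62, -0.21 and -0.13 in pairs 1, 3 and 5. Its mean of -0.20 (SE 0.10) was smaller in size than that of Col5a3, and the difference between these genes was not tested. Col11a1, a fibril collagen best known from cartilage, was the positive extreme of the group, at -0.07, 0.53 and 0.07 in pairs 11, 13 and 15 and 0.46, 0.14 and 0.16 in pairs 1, 3 and 5. The mean of Col11a1 was 0.22 (SE 0.10, limma adjusted p = 0.359). The other fibrillar genes, Col2a1, Col5a2, Col11a2, Col24a1 and Col27a1, had means between -0.18 and 0.18.

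**Figure D2:**
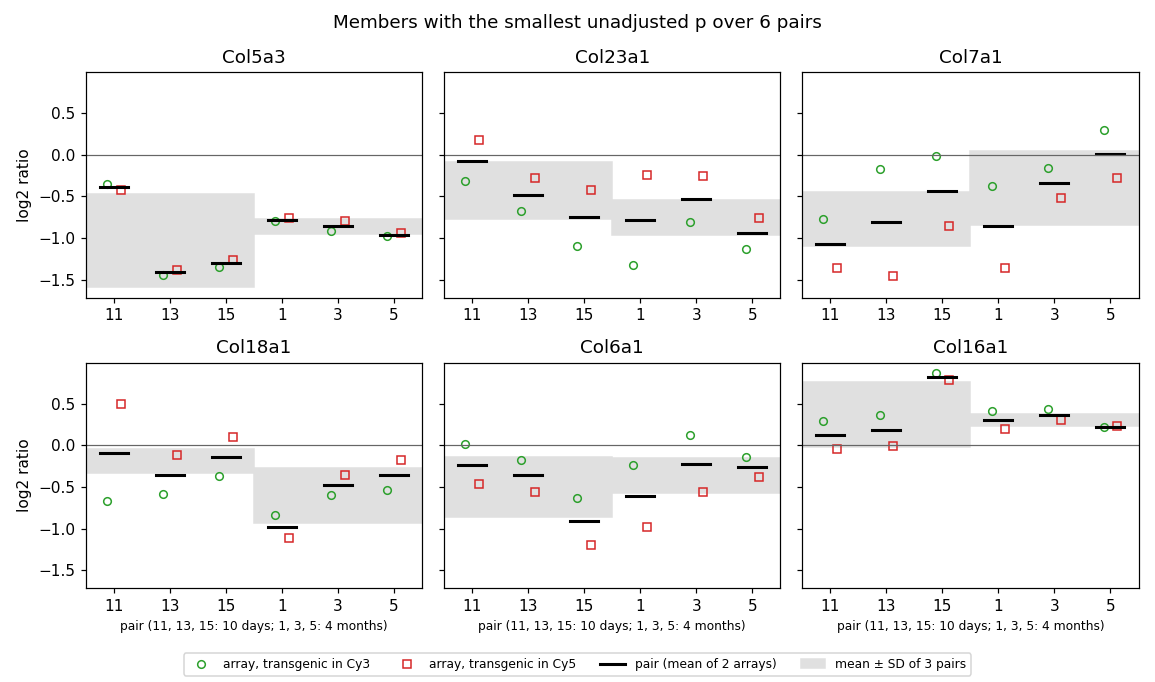
Log2 ratios of 6 matrix genes by pair: circles are arrays where Cy3 labelled the transgenic sample, squares those where Cy5 did, black bars the pair values and grey bands the mean ± SD of 3 pairs. The circles and squares of Col5a3 almost coincide in every pair, while those of Col7a1 and Col23a1 lie apart, with Col7a1 means of -0.20 in Cy3 and -0.97 in Cy5.

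Of the basement membrane, network and beaded filament collagens, 13 of 17 were negative over the 6 pairs, with a median of -0.09. Col7a1 encodes the collagen of the anchoring fibrils that tie basement membranes to the tissue beneath. It was -1.07, -0.81 and -0.43 in pairs 11, 13 and 15 and -0.86, -0.34 and 0.01 in pairs 1, 3 and 5. The values were negative in 5 of 6 pairs and the ranges of the 2 ages overlapped. The mean of Col7a1 was -0.58 (SE 0.13, limma adjusted p = 0.113), and its size rested on the dye orientation, at -0.20 where Cy3 labelled the transgenic sample and -0.97 where Cy5 did.

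Col18a1, a basement membrane collagen whose end is released as endostatin, was -0.09, -0.35 and -0.14 in pairs 11, 13 and 15. It was -0.98, -0.47 and -0.35 in pairs 1, 3 and 5. All pairs were negative, and the 4-month pairs lay at or below the lowest 10-day pair. The mean was -0.40 (SE 0.10, limma adjusted p = 0.146), made of -0.60 on Cy3-transgenic and -0.19 on Cy5-transgenic arrays. The difference between the ages was -0.41 (SE 0.20, 95% interval -0.86 to 0.04, limma adjusted p = 0.927), so the ages were not shown to differ.

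Col6a1 and Col6a3 encode chains of the same type VI beaded filament and had opposite signs. Col6a1 was -0.23, -0.36 and -0.91 in pairs 11, 13 and 15 and -0.61, -0.22 and -0.26 in pairs 1, 3 and 5. Col6a3 was 0.44, 0.38 and -0.03 in pairs 11, 13 and 15 and 0.48, 0.30 and 0.02 in pairs 1, 3 and 5. The values of Col6a1 were negative in all 6 pairs, with a mean of -0.43 (SE 0.11, limma adjusted p = 0.149), and those of Col6a3 were positive in 5, with a mean of 0.27 (SE 0.10, limma adjusted p = 0.263). The size of Col6a1 rested on the dye, at -0.17 on Cy3-transgenic and -0.69 on Cy5-transgenic arrays, while Col6a3 was 0.27 and 0.26. Col6a2, the partner chain, had a mean of -0.15.

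Type IV collagen, the scaffold of every basement membrane, is made in most tissues from Col4a1 and Col4a2. Col4a1 was -1.32, -0.47 and -0.41 in pairs 11, 13 and 15 and -0.40, 0.25 and -0.12 in pairs 1, 3 and 5. The 10-day pairs were all negative, pair 11 most so, and the 4-month pairs fell on both sides of 0. Col4a1 had the smallest p-value among matrix genes for the difference between the ages, which was 0.64 (SE 0.28, 95% interval 0.00 to 1.29, limma adjusted p = 0.927). Col4a2 ran from -0.65 to -0.04 outside pair 11, in which its 2 arrays disagreed, at 1.69 where Cy3 labelled the transgenic sample and -0.89 where Cy5 did. Its value of 0.40 in pair 11 is the mean of these arrays and has no settled sign.

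Type VIII collagen is made from Col8a1 and Col8a2. Col8a1, a short-chain network collagen, was -0.16, -0.41 and -0.21 in pairs 11, 13 and 15 and -0.17, 0.07 and 0.07 in pairs 1, 3 and 5. The partner Col8a2 was 0.05, 0.12 and -0.04 in pairs 11, 13 and 15 and -0.25, 0.06 and -0.51 in pairs 1, 3 and 5. Their means were -0.13 for Col8a1 and -0.10 for Col8a2. The Col8a1 probe was dim, brighter than only 15.5% of probes, and that of Col8a2 was brighter than 31.9%. The sign of Col8a1 turned with the dye, from 0.25 on Cy3-transgenic to -0.52 on Cy5-transgenic arrays, and that of Col8a2 from 0.05 to -0.24. On values as deposited their means were 0.21 and 0.24, both below the median of all features there, 0.27. Col4a4 was the 1 matrix gene with 2 probes, and these disagreed: one was 0.75 and the other -0.32 in pair 13, and 0.70 and -0.99 in pair 15, so its mean of -0.06 describes neither.

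The fibril-associated and transmembrane collagens were balanced, with 8 of 14 positive and a median of 0.03. Col23a1, a transmembrane collagen, was -0.07, -0.48 and -0.75 in pairs 11, 13 and 15 and -0.78, -0.53 and -0.94 in pairs 1, 3 and 5. All pairs were negative and pair 11 was near 0. The mean of Col23a1 was -0.59 (SE 0.10, 95% interval -0.83 to -0.35, limma adjusted p = 0.0926), and at 4 months it was -0.75 ± 0.21 (SD, n = 3). Its mean was -0.89 where Cy3 labelled the transgenic sample and -0.29 where Cy5 did.

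Col16a1, a collagen that associates with fibrils, was 0.12, 0.18 and 0.82 in pairs 11, 13 and 15 and 0.30, 0.36 and 0.22 in pairs 1, 3 and 5. It was positive in every pair, with pair 15 apart from the rest, and its mean of 0.34 (SE 0.10, limma adjusted p = 0.208) was the most positive of the matrix genes in this fit. Without pair 15 it was 0.22, below Col6a3 at 0.34, and with arrays centred on their median it was 0.19, below Col25a1 at 0.26. Col25a1, a transmembrane collagen known from nerve cells, was 0.17, 0.14 and 0.06 in pairs 11, 13 and 15 and 0.39, 0.23 and 0.21 in pairs 1, 3 and 5. Although positive in every pair, Col25a1 averaged 0.46 in one dye orientation and -0.06 in the other, so its sign rests on the Cy3-transgenic arrays. The Col25a1 probe was also dim, brighter than only 20.1% of probes. The other 11 genes of this group had means between -0.21 for Col14a1 and 0.17 for Col12a1.

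Of the matrix genes that are not collagens, 7 of 10 tested were negative, with a median of -0.13. Dcn encodes decorin, a small proteoglycan that coats collagen fibrils. Dcn was -1.46, -0.41 and 1.49 in pairs 11, 13 and 15 and -0.21, -0.27 and 0.00 in pairs 1, 3 and 5. The 10-day values of Dcn spanned almost 3 log2 units while the 4-month values lay near 0, which left a mean of -0.14 (SE 0.32). With pairs left out in turn that mean ran from -0.55 to 0.19, the latter without pair 11. Lum, which encodes the related proteoglycan lumican, was -0.05, -0.11 and 0.28 in pairs 11, 13 and 15 and 0.27, 0.07 and -0.07 in pairs 1, 3 and 5. Lum thus showed none of that span.

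Postn encodes periostin, a matricellular protein of fibroblasts. Postn was -1.18, -0.17 and 1.28 in pairs 11, 13 and 15 and -0.42, -0.80 and -0.75 in pairs 1, 3 and 5. As with Col3a1, the 4-month pairs of Postn were all negative (-0.65 ± 0.20, SD, n = 3, limma adjusted p = 0.511) and the 10-day pairs fell on both sides of 0. Its mean over the 6 pairs of -0.34 ran from -0.66 to -0.05 with pairs left out in turn. Fn1, which encodes fibronectin, was -0.55, -0.08 and 0.95 in pairs 11, 13 and 15 and 0.05, -0.66 and 0.32 in pairs 1, 3 and 5.

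Mgp, which encodes an inhibitor of calcification, had the widest spread at 4 months. It was 0.33, -0.18 and -1.28 in pairs 11, 13 and 15 and 0.65, -0.14 and -1.61 in pairs 1, 3 and 5. The female pairs 15 and 5 were the lowest at each age. The mean of Mgp was -0.37 (SE 0.30, limma adjusted p = 0.599), and with sex as a term in the fit its adjusted p was 0.265, in a range of 0.265 to 0.927 over 19 alternatives. The difference between the sexes itself was not tested. With pairs left out in turn the Mgp mean ran from -0.63 without pair 1 to -0.06 without pair 5.

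Lox, the enzyme that crosslinks collagen and elastin, was -0.79, -0.22 and 0.14 in pairs 11, 13 and 15 and 0.13, -0.04 and 0.08 in pairs 1, 3 and 5. Eln, which encodes elastin itself, was 0.06, 0.27 and -0.11 in pairs 11, 13 and 15 and 0.43, -0.34 and -0.01 in pairs 1, 3 and 5. Timp1, an inhibitor of matrix proteases, was -0.04, -0.10 and 0.09 in pairs 11, 13 and 15 and -0.37, -0.03 and -0.02 in pairs 1, 3 and 5. Means of these 3 genes lay between -0.12 and 0.05, and the smallest limma adjusted p was 0.68. Sparc, an abundant collagen-binding protein, was listed at exactly 0 on 9 of 12 arrays and was not tested. Its deposited ratios on the other 3 arrays were 0.24, -0.45 and -0.23. Its signal was recovered from only one of those, the Cy3-transgenic array of pair 5, and was above that of 98.3% of probes.

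A group of stromal genes shared one pattern among the 10-day pairs. Dcn, Col3a1, Postn, Col1a2, Fn1 and Col5a2 had ratios that were larger in pair 15 than in pair 11 by 2.96, 2.82, 2.46, 1.63, 1.5 and 1.24 on the log2 scale, with pair 13 between them. These are the 6 of 52 matrix genes that differed by more than 1 in that direction, against 3.73% of all features. They were picked out after their values were seen and compare 1 pair with 1 pair, so no test was made. Pair 15 was female and pairs 11 and 13 were male, so sex and other differences between these pairs cannot be told apart. From pair 11 to pair 15 Mgp went the other way, by -1.61. Col4a2 did so by -1.01, a value that rests on the Cy3-transgenic array of pair 11. At 10 days 10 of 52 matrix genes had an SD between pairs above 0.5 (19.2%, against 6.95% of all features), and at 4 months 2 of 52 had one (3.85%, against 8.81%).

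Both of these pairs also stood apart in markers of other tissues. In pair 11 Alb, the albumin gene of hepatocytes, was 6.72, and 12 of 13 hepatocyte markers were positive. In pair 15 Adipoq, the adiponectin gene of adipocytes, was 5.13, and 9 of 11 adipocyte markers were positive. Markers of fibroblast and capsule cells that are not matrix genes had a median of -0.16 in pair 11 (12 of 15 negative) and 0.31 in pair 15 (3 of 15 negative), and among them Vim, the vimentin gene, was -1.1 and 0.78. Adrenal cortex markers had a median of -0.57 in pair 11 (8 of 9 negative) and 0.19 in pair 15 (2 of 9 negative). Medians in pairs 11 and 15 were -0.11 and 0.65 for macrophage markers and 0.09 and 0.88 for chromaffin cell markers. In whole glands, fewer cells of a type and less RNA per cell cannot be told apart. The part of these cell types in the stromal ratios was not tested. The B-cell genes Cd79a and Cd79b were -4.18 and -5.18 in pair 3, in which the matrix genes had a median of 0.00.

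The dye orientations were compared because they measure the same RNA. By their descriptions, the arrays of one orientation also form a set apart from those of the other, so the dye and any other difference between these sets cannot be told apart. On Cy3-transgenic arrays limma passed 7 of 52 matrix genes, against 6.59% of all features, and on Cy5-transgenic arrays 11 of 52, against 16.1%. A dye effect does not cancel within one orientation. Col5a3 was the only matrix gene to pass in both with the same sign (against 0.58% of all features), at -0.97 (limma adjusted p = 0.0133) in Cy3 and -0.93 (limma adjusted p = 0.00628) in Cy5.

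Fbln1, which encodes the elastic fibre protein fibulin 1, passed in both orientations with opposite signs, at 0.61 and -0.88. Col4a5, a chain of the minor type IV network, did so too, at -0.40 and 0.40, and over all features the share with opposite signs was 2.48%. Of the 52 matrix genes, 21 had the same mean sign in both orientations and 31 opposite signs. For 11 of 52 the orientations differed by more than 0.5. These counts were not made over all features, so they are not read as a trait of matrix genes. Within single pairs, the arrays agreed in sign for 48.1% to 61.5% of matrix genes and for 47.9% to 56.5% of all features.

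**Figure D3:**
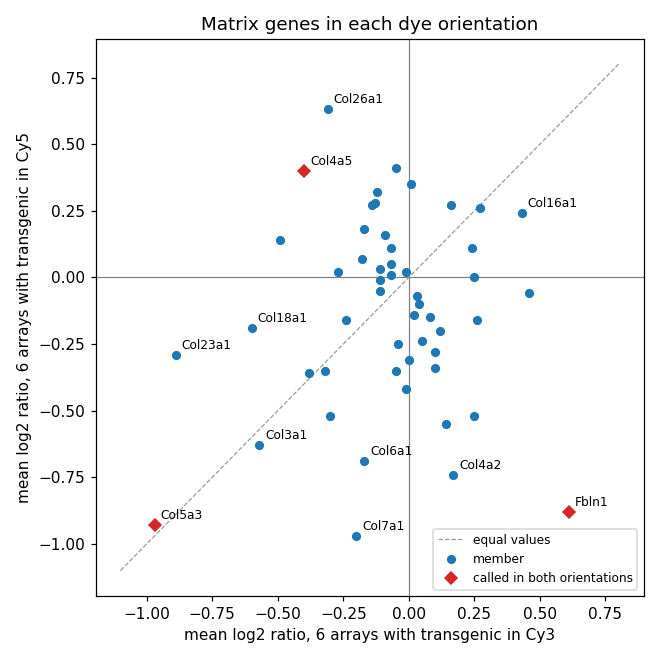
Mean log2 ratio of each tested matrix gene on the 6 Cy3-transgenic arrays (horizontal) against the 6 Cy5-transgenic arrays (vertical), with the dashed line marking equal values and diamonds marking genes past the threshold in both. Col5a3 lies on the line near -0.97 and -0.93, and Fbln1 and Col4a5 lie in the quadrants of opposite sign.

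Between 4 months and 10 days the median difference of the matrix genes was 0.01, against 0.00 for all features. Of the 52 matrix genes 30 were positive and 22 negative, where 50% of all features were negative. Over all features 2.6% had 3 of 3 pairs of one sign at 10 days and 3 of 3 of the other at 4 months, and 0 of 52 matrix genes did. The smallest p-values belonged to Col4a1, Col18a1, Col8a1 and Col8a2, and their differences of 0.64, -0.41, 0.25 and -0.28 each had a limma adjusted p of 0.927. For Col5a3 the difference was 0.17 (SE 0.27, 95% interval -0.45 to 0.79). That interval holds differences of either sign.

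Several matrix genes lie next to each other in the genome. Col3a1 and Col5a2, neighbours on chromosome 1, agreed in sign in all 6 of the pairs. Their means were -0.60 and -0.18. Col4a1 and Col4a2, and likewise Col6a1 and Col6a2, had the same sign in 4 of 6. Dcn and Lum on chromosome 10 had the same sign in 3 of 6, as did the pairs Col4a3 and Col4a4, Col4a5 and Col4a6, and Col9a1 and Col19a1. The Col4a4 value averages probes that disagreed. Agreement between neighbours was not counted over all genes, so these counts have no background beside them.

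The genes that make, cut and bind collagen were read from 5 further lists, and limma passed 0 genes in each over the 6 pairs. Of 25 enzymes and chaperones of collagen synthesis, 3 had an unadjusted p below 0.05, with a list median of 0.02. Over all features the share at that level was 15%, which is the background for each of these lists. Plod1 and Plod2, which hydroxylate lysines of collagen, had means of -0.26 and 0.24. Among 17 matrix proteases and inhibitors 5 reached that level, led by the collagenases Mmp14 at -0.46 and Mmp13 at -0.29.

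Mmp14 was -1.25 in pair 11 and ran from -0.42 to -0.08 elsewhere. Of 16 genes of TGF-beta signalling 3 reached it, with means of -0.31 for Tgfbr3, a co-receptor, and -0.42 for Tgfbi, a matrix target of the pathway. Among 14 laminins and other basement membrane genes Lama4, a laminin chain of vessel walls, was the only one, with a mean of -0.52 (SE 0.12, limma adjusted p = 0.14) and negative values in all 6 pairs. Lama3, the next in that list, had a mean of 0.14.

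Of 18 integrins and collagen receptors, Itga1, the alpha chain of a collagen-binding integrin, was the only one to reach it. Itga1 was 0.87, 0.44 and 0.18 in pairs 11, 13 and 15 and 0.44, 0.39 and 0.53 in pairs 1, 3 and 5, positive throughout. Its mean was 0.47 (SE 0.10, limma adjusted p = 0.104), and that of the collagen receptor Lair1 was -0.23.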

How the data were processed

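The deposited values were log2 ratios of the 2 channels per spot. Base 2 was read from the 6 Cy3-transgenic arrays, stored at full precision: as powers of 2, 100% of spots gave quotients of whole numbers up to 65535 (relative tolerance 1e-13), against at most 0.417% with base e. How the authors normalised, scanned and background-corrected the arrays is not stated in the labels. Values were not centred, with array medians of -0.68 to -0.22 (transgenic in Cy3) and 0.74 to 1.50 (Cy5), and between 4.30% and 6.59% of spots per array were empty.

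For this reason a loess fit (span 0.3) against probe signal was subtracted from each array, with signal taken as the 75th percentile over those 6 arrays of the geometric mean of the recovered whole numbers. For 31 probes at exactly 0 on 3 or more arrays, those spots (183) were set to missing, a step chosen after seeing the data. Probes were assigned to genes from the platform annotation (21082 probes with 1 gene, 30 with several, 4232 with none). For 20456 of the probes with 1 gene, the gene identifier was found in RefSeq and the symbol given there was used. Several probes of one gene were averaged. Dye-exchanged arrays are technical repeats and were averaged to 1 value per pair. Features with 2 of 3 pairs per age entered a limma model (version 3.58.1, R 4.3.3) of age means (4 residual and 3.81 prior degrees of freedom), two-sided, with Benjamini-Hochberg adjustment over 21904 features and a threshold of 0.05. The procedure was tested on simulated data. There both arrays of a pair held the same ratio apart from the trend with signal, so dye effects of single genes were not covered. Pairs are separate mice by their numbers. The files give no background signal, and precision is limited by the number of pairs, 3 per age.

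Named matrix genes were the 6 with the smallest p in each contrast, the 3 most positive and 3 most negative means, a set of abundant fibril and capsule genes, and Col5a3. In the other lists the 2 genes with the smallest p were named. Genes in neighbouring pairs, counts and lists were named beside these where a count of 5 or fewer or a group was described, after their values were seen. The genes and lists were chosen with earlier results of these data known.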

Additional observations from a re-analysis of the deposited data

How the results depend on the processing

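Over the 6 pairs the count of features past the threshold was 0 with arrays centred on their median, 1 in an ordinary linear model, 0 with sex as a term, 0 without pairs 11, 15 and 3 together, and 16 with the brightest probe of a gene. On values as deposited it was 3545 over the 6 pairs with 8 matrix genes, 7 at 10 days and 255 at 4 months. The matrix medians there were 0.23 over the 6 pairs, 0.15 at 10 days, 0.33 at 4 months and 0.25 between the ages. Medians of all features were 0.27, 0.20, 0.36 and 0.17 in the same order, and signs there are read against these. Cy3-transgenic arrays alone gave 1439 features and 7 matrix genes over the 6 pairs, 30 features at 10 days, and 289 features and 2 matrix genes at 4 months. Cy5-transgenic arrays alone gave 3481 and 11, 218 and 3, and 915 and 3, with a 4-month matrix median of -0.10 and a Col25a1 mean of -0.06, a reversed sign. The matrix median between the ages was 0.07 with arrays centred on their median and also with Cy3 only, and at 4 months it was -0.09 without the dimmest 25% of probes. Col8a1 was 0.25 with Cy3 only, -0.52 with Cy5 only and 0.21 as deposited. The cause of these changes was not tested.

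With pairs left out in turn, features past the threshold ran from 0 to 14 over the 6 pairs (4 without pair 11, 14 without pair 5, and 0 without each of pairs 13, 15, 1 and 3), from 0 to 1 at 10 days and from 0 to 2 at 4 months. Matrix genes past it ran from 0 to 1 over the 6 pairs (Col5a3 without pair 11). Matrix medians ran from -0.07 to -0.02 over the 6 pairs, from -0.08 to 0.02 at 10 days and from -0.01 to 0.08 between the ages. Keeping the spots at exactly 0, an alternative chosen after seeing the data, changed no call of a matrix gene. No paired analysis was possible because the ages share no replicate numbers.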
